A study of Mus musculus with 16 samples.

Results

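MicroRNA (miRNA) levels in the carotid artery 7 days after wire injury were set against those 1 day after the injury. The comparison took all mouse miRNAs with a probe on the arrays of both days, which were 611 miRNAs on 6 of the 16 arrays of the series, and 322 of them were tested. The day 7 group held 3 arteries of female ApoE-/- mice labelled as 6 to 8 weeks old, and the day 1 group held 3 arteries of female ApoE-/- mice labelled as 8 weeks old. All mice had a C57BL/6 background and were fed a western-type diet. Every animal lacked apolipoprotein E, so no group of this series carries the gene intact. Each array was hybridized with Cy3-labelled total RNA of injured carotid artery, and the study asked how miRNA levels change while a neointima forms. The uninjured (n = 3), day 14 (n = 3) and day 28 (n = 4) arteries were not part of the contrast itself. They entered the estimate of the spread, the array scaling, the floor for dim spots and the choice of probes and tested miRNAs. Their means are given only in the time courses at the end.

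A miRNA is a short RNA cut from a hairpin, and it lowers the output of messenger RNAs that pair with its seed, the bases 2 to 8 from its 5′ end. Pulling a wire through an artery strips the endothelium and damages the medial smooth muscle. Blood cells gather at the wound in the first days, and smooth muscle and fibroblast-like cells later divide and build a neointima. The miRNAs of contractile smooth muscle, of leukocytes and of growing mesenchyme have therefore been much studied in injured vessels.

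Mature sequences were found in RefSeq (GRCm38.p6) for 234 of the 322 tested miRNAs, and those of the largest called differences and of the seeds shared by called miRNAs are shown here, with the seed in capitals. Among the miRNAs that were higher at day 7, miR-34a and miR-34b-5p share the seed GGCAGUG, and miR-146a and miR-146b share GAGAACU, while the genomic neighbours miR-322 and miR-503 have the seeds AGCAGCA and AGCAGCG.
miR-299: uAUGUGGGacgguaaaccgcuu
miR-299*: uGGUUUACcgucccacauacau
miR-379: uGGUAGACuauggaacguagg
miR-411: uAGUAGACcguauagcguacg
miR-377: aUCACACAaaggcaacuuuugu
miR-214: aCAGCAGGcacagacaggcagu
miR-199a-3p: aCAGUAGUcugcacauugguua
miR-199a-5p: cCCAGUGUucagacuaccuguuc
miR-34a: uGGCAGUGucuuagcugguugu
miR-34b-5p: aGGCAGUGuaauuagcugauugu
miR-322: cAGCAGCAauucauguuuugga
miR-503: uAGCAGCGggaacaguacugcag
miR-155: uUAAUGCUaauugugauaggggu
miR-146a: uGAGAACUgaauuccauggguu
miR-146b: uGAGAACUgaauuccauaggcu

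The miRNAs that were lower at day 7 include miR-7a and miR-7b with the seed GGAAGAC, 3 miR-29 members with AGCACCA and 3 miR-30 members with GUAAACA. The sequences of miR-124, miR-129-3p, miR-143, miR-145, miR-199b*, miR-34c and miR-598 are not shown.
miR-137: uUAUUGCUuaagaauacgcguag
miR-138: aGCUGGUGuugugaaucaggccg
miR-153: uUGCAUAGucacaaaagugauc
miR-218: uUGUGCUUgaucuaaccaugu
miR-7a: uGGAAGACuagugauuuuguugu
miR-7b: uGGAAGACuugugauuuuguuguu
miR-29a: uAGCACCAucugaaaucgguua
miR-29b: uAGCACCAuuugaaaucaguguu
miR-29c: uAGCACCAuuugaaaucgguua
miR-30a: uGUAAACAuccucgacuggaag
miR-30c: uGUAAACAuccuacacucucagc
miR-30e: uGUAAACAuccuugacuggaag

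The arrays of the 2 days differed in brightness, and 1 of them differed from its group in part of the miRNAs. The 75th percentile of the intensity over probes detected on all 16 arrays was 1214, 816.2 and 1010 on the day 7 arrays, against 606.2, 761.3 and 483.8 on the day 1 arrays. This log2 difference of 0.72 had a two-sided exact permutation p of 0.1, the smallest that 3 arrays against 3 can give. All values below are relative signals, that is, log2 of a probe's intensity after division by that percentile of its own array, so that 0 is the percentile and the floor for dim spots lies at -5.79. Over the tested miRNAs, day 7 replicates 2 and 3 correlated at r = 0.995 and replicate 1 correlated with each of them at 0.972, against 0.977 to 0.989 among the day 1 arrays. The 3 day 1 arrays and day 7 replicate 1 lay in 1 row of the slide, and day 7 replicates 2 and 3 in the other. Day 7 replicate 1 stood over 1 log2 unit from the mean of the other day 7 arrays in 29 of the 322 miRNAs. The arterial markers miR-143, miR-145 and miR-126-3p were well above background on all 6 arrays. In such bulk tissue, fewer cells of a type and less RNA per cell cannot be told apart.

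In all, 139 miRNAs (43.2% of those tested) passed an adjusted p under 0.05 with limma, of which 60 (18.6%) were higher and 79 (24.5%) were lower at day 7. The largest increases were those of miR-299, miR-214, miR-34a, miR-299*, miR-379, miR-503 and miR-155, each over 4-fold up. The lowest were miRNAs known from neurons, led by miR-137, miR-7b and miR-124. The 3 arrays of day 7 lay wholly above the 3 of day 1 in 86 miRNAs (26.7%) and wholly below in 114 (35.4%), and this held for all 60 miRNAs called higher and for 78 of the 79 called lower. A log2 difference of at least 1 was reached by 29 called higher and 46 called lower. The median standard error of a log2 difference was 0.24, and the arrays are separate animals according to the study design, so the p-values measure the spread between animals and their arrays. All 114 called miRNAs with more than 1 measured probe had the same direction in each of their probes. The sizes could differ, since the smallest and largest probe differences were 0.05 and 2.88 for miR-299 and 0.05 and 0.96 for miR-146b. They were 0.48 and 1.76 for miR-431, whereas both probes of miR-214 gave 2.51. The reported differences are those of the brightest probe.

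**Figure D1:**
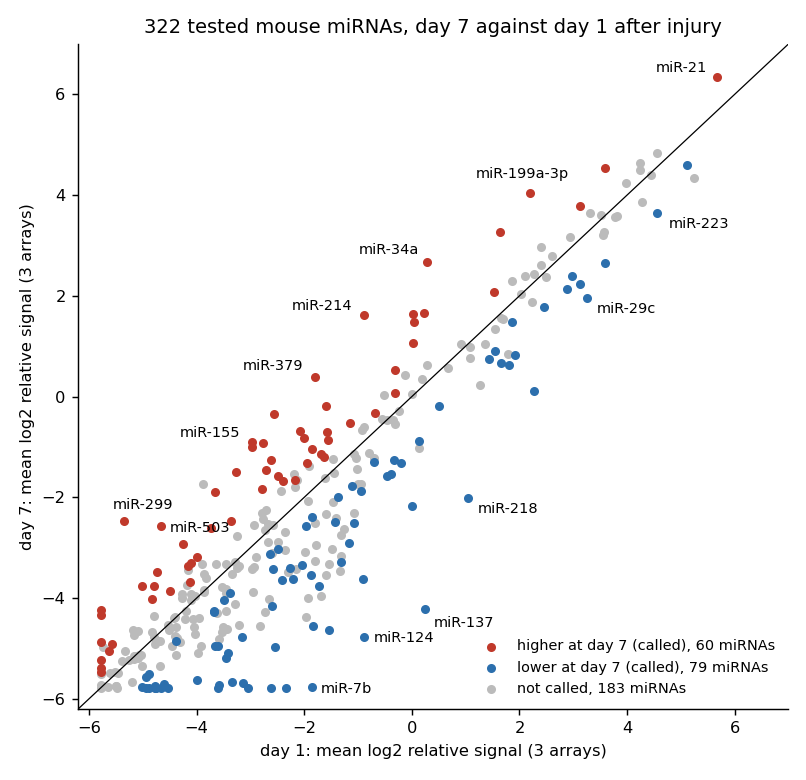
Mean log2 relative signal at day 7 (vertical) against day 1 (horizontal) for the 322 tested miRNAs, 3 arrays a day. Points above the line are higher at day 7, and the 60 called higher, the 79 called lower and the rest are coloured apart. The row of points at the bottom lies at the floor of -5.79.

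The balance between higher and lower calls depended on the scaling of the arrays, since the median difference of all tested miRNAs was -0.19 in the scaling used here. It was 0.27 when arrays were scaled to their median, 0.27 when the 75th percentile was taken from all mouse probes, and 0.50 with no scaling. Over 7 scalings the number called higher ran from 60 to 104 and the number called lower from 11 to 79. Of the 60 miRNAs called higher, 56 were called higher in all 7 scalings, and all 60 kept their sign. Of the 79 called lower, 11 were called lower in all 7 scalings, and 60 kept their sign in all. The scaling used had the lowest median difference of the 7, so every other scaling moved the median upward. Keeping higher calls and losing lower calls over the scalings is thus largely built in. This also holds for the counts of scalings given below. The called decreases are therefore given below with the number of scalings that called them, and each is a decrease relative to the scaling of its array.

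**Figure D2:**
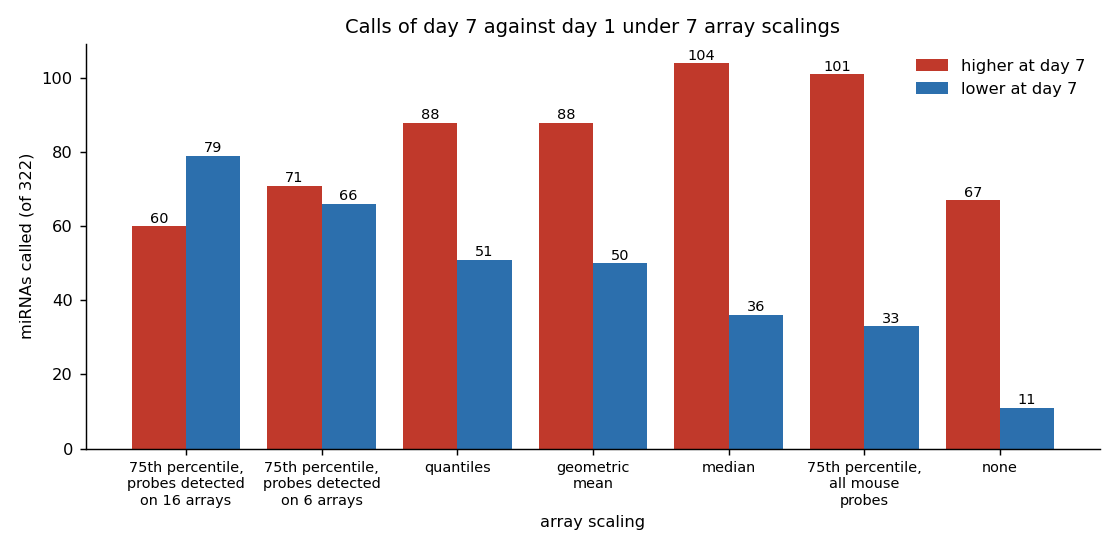
Number of miRNAs called higher (left bar of each pair) and lower (right bar) at day 7 under 7 array scalings, out of 322. The used scaling, first from the left, gave 60 higher and 79 lower, and no scaling gave 67 higher and 11 lower.

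The miR-199 and miR-214 group rose at day 7. These miRNAs are transcribed from loci opposite the dynamin genes and are known from mesenchyme and fibroblasts. Of 5 tested members 4 were called higher and 0 lower, beside 18.6% and 24.5% of all tested miRNAs. The median difference was 1.63 against -0.19 over all tested miRNAs, and 4 were called higher in each of the 7 scalings. For miR-214 the relative signal was 1.64, 1.63 and 1.57 on the day 7 arrays, against -0.66, -1.13 and -0.91 on the day 1 arrays. The days did not overlap, and day 7 was 5.69-fold higher (log2 difference 2.51, SE 0.19, adjusted p = 5.51e-07). miR-199a-3p, which RefSeq places on chromosome 1 beside miR-214 and also on chromosome 9, so that its probe reads both copies, had 4.01, 3.96 and 4.17 at day 7, against 2.26, 1.98 and 2.33 at day 1. All day 7 arrays were again above all day 1 arrays, by a log2 difference of 1.86 (SE 0.13, adjusted p = 4.54e-07). The other strand, miR-199a-5p, rose by 1.62 (SE 0.20, adjusted p = 2.93e-05), and miR-199b* from the paralogous locus by 1.63 (SE 0.15, adjusted p = 2.3e-06). The summed linear relative signal of the group was 30.7 to 35.3 at day 7, against 8.14 to 10.3 at day 1.

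The large imprinted region between Dlk1 and Dio3 on chromosome 12, whose miRNAs are expressed from the maternal chromosome, gave 14 higher and 2 lower calls among 46 tested members, with a median difference of 0.34. The shares over all tested miRNAs were 18.6% higher and 24.5% lower. The members did not move as one, since 30 were not called and single differences ran from -1.73 to 2.88. The largest increases were those of miR-299, miR-379, miR-377, miR-411 and miR-431, all called higher in 7 scalings. miR-299 had -2.59, -2.45 and -2.40 at day 7, against -5.28, -5.23 and -5.54 at day 1. It was well above background on 3 arrays of day 7 and 2 of day 1, so day 7 was at least 6.99-fold higher (adjusted p = 4.54e-07). This holds for its brightest probe, while its other measured probe rose by 0.05 on the log2 scale. The other strand miR-299*, measured on all 6 arrays, had -0.39, -0.35 and -0.29 at day 7, against -2.39, -2.65 and -2.63 at day 1. The days were again apart, and the log2 difference was 2.21 (SE 0.16, adjusted p = 4.54e-07). miR-379 had 0.19, 0.43 and 0.52 at day 7, against -1.46, -1.65 and -2.28 at day 1, a rise of 2.18 (SE 0.24, adjusted p = 1.56e-05). Here day 1 replicate 3 was the lowest of the 6 arrays, as it was for miR-411 and miR-431, and the days did not overlap in any of the 3.

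Along this region, the hairpins from Mir379 to Mir410, each within 10 kb of the next in RefSeq, held 28 tested miRNAs, of which 8 were higher and 1 was lower. The upstream run from Mir337 to Mir136 held 11, with 4 higher and 1 lower, among them miR-431 (1.76, SE 0.28, adjusted p = 0.000279). The number of members called higher ran from 14 to 22 over the scalings. It was 9 without day 7 replicate 2, where 44 of all 322 tested miRNAs were called higher. Without day 1 replicate 3 it was also 9, where 53 of the 322 were called higher.

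2 clusters on the X chromosome were higher at day 7. The first holds miR-322, the mouse counterpart of human miR-424, and miR-503, which are known to restrain cyclins and other drivers of the cell cycle. Of its 11 members on the array 6 were tested, and all 6 were called higher, beside 18.6% of all tested miRNAs. Their median difference was 1.34, and all 6 were called higher in each of the 7 scalings. Of these, miR-450a-5p and miR-450b-3p were tested only because every day 7 array detected them. Their direction was thus fixed by the filter and lends the count no support. miR-503 had -2.63, -2.33 and -2.75 at day 7, against -4.78, -4.56 and -4.65 at day 1. These groups were far apart, with a log2 difference of 2.09 (SE 0.16, adjusted p = 5.51e-07). miR-322 had 1.63, 1.65 and 1.69 at day 7, against -0.30, 0.59 and 0.38 at day 1. The day 7 arrays were nearly equal and day 1 replicate 1 was the lowest array, and the difference was 1.44 (SE 0.24, adjusted p = 0.000382). miR-542-3p was well above background on 3 day 7 arrays and 0 day 1 arrays and was at least 2.25-fold higher at day 7 (adjusted p = 1.39e-06). Several members were dim, and with a normexp background 2 of the 6 stayed called higher.

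The second X-linked cluster, with miR-362, miR-500 and miR-532, had 4 of 6 tested members called higher and 0 lower, with a median difference of 0.65. Of all tested miRNAs, 18.6% were called higher and 24.5% lower. The cluster's largest rise was that of miR-362-5p, with -3.02, -2.77 and -3.01 at day 7, against -4.05, -4.28 and -4.46 at day 1 (log2 difference 1.33, SE 0.16, adjusted p = 2.93e-05). miR-532-5p rose by 0.91 (SE 0.14, adjusted p = 0.000253) and miR-362-3p by 0.69 (SE 0.14, adjusted p = 0.00118). miR-500, which shares its seed with miR-362-5p, rose by 0.62 (SE 0.19, adjusted p = 0.0168), but without day 1 replicate 2 its adjusted p was 0.0549.

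The miR-34 family, whose best known member miR-34a is induced by p53 and restrains the cell cycle, had 3 of 5 tested members called higher and 1 called lower. The shares of all tested miRNAs were 18.6% and 24.5%. miR-34a had 2.72, 2.78 and 2.54 at day 7, against -0.02, 0.35 and 0.53 at day 1. No array of 1 day came near the other, and day 7 was 5.26-fold higher (log2 difference 2.39, SE 0.20, adjusted p = 1.39e-06). From the separate miR-34b and miR-34c locus, miR-34b-5p rose by 1.41 (SE 0.26, adjusted p = 0.000767) and miR-34c by 1.36 (SE 0.23, adjusted p = 0.00046). The other strand of the miR-34b hairpin went the opposite way. miR-34b-3p had -5.79, -4.97 and -4.81 at day 7, against -3.002, -3.52 and -3.83 at day 1 (adjusted p = 0.00628, called lower in 6 of 7 scalings).

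Among miRNAs induced in inflammation, 4 of 7 tested were called higher and 0 lower, beside 18.6% and 24.5% of all tested miRNAs. Their median difference was 0.66. miR-155, which rises in activated macrophages and lymphocytes, had -0.90, -1.05 and -0.79 at day 7, against -3.07, -3.23 and -2.62 at day 1. The 2 groups were apart, and day 7 was 4.18-fold higher (log2 difference 2.06, SE 0.31, adjusted p = 0.000163). miR-146a, induced by NF-kB and a brake on its signalling, had -1.05, -0.84 and -0.87 at day 7, against -2.75, -2.997 and -2.55 at day 1. It rose by 1.84 (SE 0.17, adjusted p = 3.48e-06), and miR-146b, encoded elsewhere with the same seed, rose by 0.96 (SE 0.18, adjusted p = 0.000863). The other probe of miR-146b rose by 0.05. miR-21 had 6.17, 6.50 and 6.33 at day 7, against 5.81, 5.41 and 5.81 at day 1, and rose by 0.66 (SE 0.22, adjusted p = 0.0269). The call of miR-21 was lost without day 7 replicate 2 (adjusted p = 0.0887), without day 7 replicate 3 (0.059) and without day 1 replicate 2 (0.104). Quantile normalization also lost it, with a difference of 0.23 (limma adjusted p = 0.263).

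The leukocyte-enriched miRNAs did not move together, with 3 of 8 tested called higher, 1 lower and a median difference of -0.28. Over all tested miRNAs, 18.6% were called higher and 24.5% lower. miR-223, the main miRNA of neutrophils and monocytes, had 3.88, 3.61 and 3.42 at day 7, against 4.65, 4.52 and 4.53 at day 1. It was lower on every day 7 array and fell by 0.93 on the log2 scale (SE 0.17, adjusted p = 0.000863), a call made in 5 of 7 scalings. Both strands of miR-342, known from lymphocytes, were higher at day 7, miR-342-3p with 1.60, 1.53 and 1.33 at day 7, against 0.05, 0.02 and 0.06 at day 1 (log2 difference 1.44, SE 0.16, adjusted p = 1.56e-05). The weaker strand miR-342-5p rose by 1.03 (SE 0.29, adjusted p = 0.0108). Because miR-223 is bright, the summed linear relative signal of the list was 15.8 to 20.6 at day 7, against 26.7 to 29.4 at day 1, and on each day 1 of its 9 miRNAs was detected on no array.

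Of the miRNAs tied to vascular growth after injury, 4 of 6 tested were called higher and 0 lower. Among all tested miRNAs the shares were 18.6% and 24.5%. miR-31, known to promote smooth muscle growth, had -0.96, -0.36 and -0.74 at day 7, against -1.77, -2.48 and -1.97 at day 1. The days were apart, with a rise of 1.39 (SE 0.25, adjusted p = 0.000696) that every scaling called. The list's count dropped to 1 without day 7 replicate 2, without day 7 replicate 3 or without day 1 replicate 2. miR-126-3p, encoded within the endothelial gene Egfl7, had 3.62, 3.78 and 3.94 at day 7, against 2.81, 3.29 and 3.27 at day 1. It rose by 0.65 (SE 0.16, adjusted p = 0.00503), a difference of 0.49 with an adjusted p of 0.205 with slide row as a block. miR-675-3p, cut from the H19 transcript, was well above background on 3 day 7 arrays and 0 day 1 arrays and was at least 2.44-fold higher at day 7 (adjusted p = 4.75e-05).

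**Figure D3:**
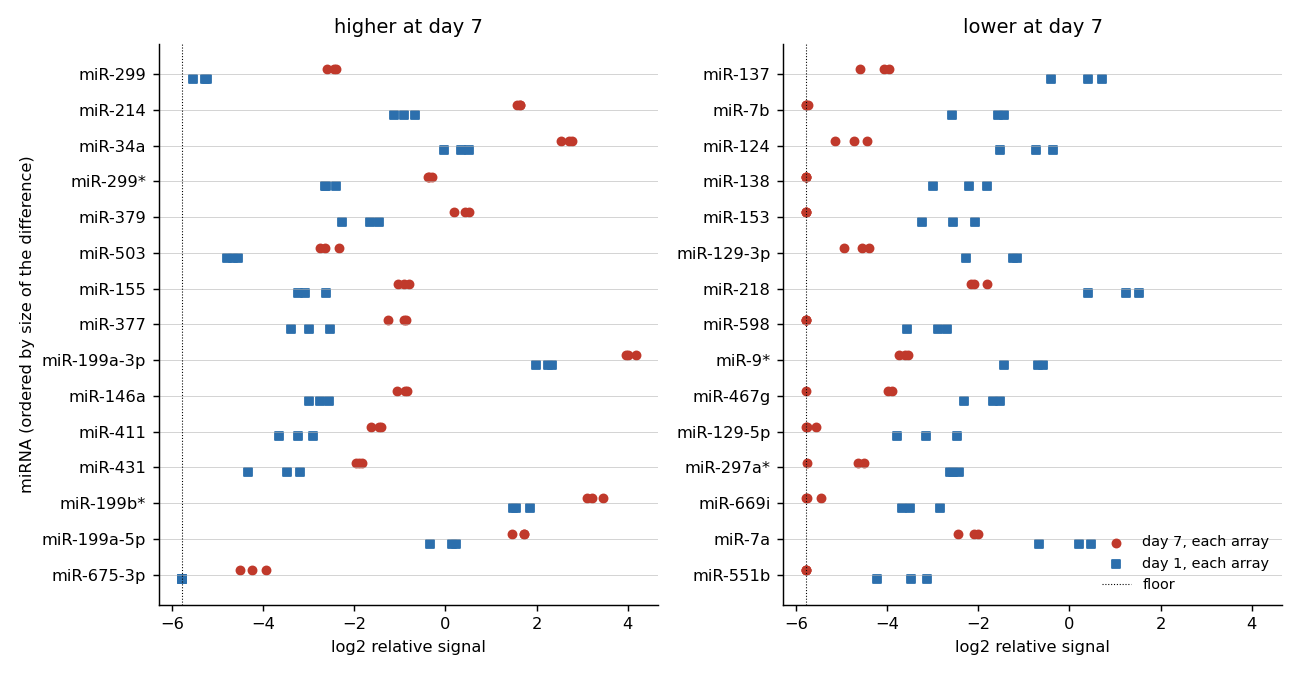
Log2 relative signal of each array for the 15 called miRNAs with the largest increase (left panel) and the largest decrease (right panel) whose days did not overlap. Circles, on the upper line of each miRNA, are day 7 arrays, squares below them are day 1 arrays, and the dotted line is the floor at -5.79. Day 7 replicate 1 is the lowest circle of miR-467g and miR-297a*.

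The largest decreases belonged to miRNAs known from neurons. Of 12 tested neuronal miRNAs 10 were called lower and 0 higher, beside 24.5% of all tested miRNAs called lower. Their median difference was -3.08, and from 7 to 10 were called lower over the scalings. Like the other lists, this one was chosen with earlier results of these data known, so its count is no independent support. miR-137 had -4.08, -3.96 and -4.60 at day 7, against 0.72, 0.41 and -0.40 at day 1. The days were over 3 log2 units apart, and day 7 was 21.9-fold lower (log2 difference -4.45, SE 0.82, adjusted p = 0.000767). miR-124, the most abundant miRNA of the brain, had -4.73, -4.45 and -5.15 at day 7, against -0.37, -0.74 and -1.53 at day 1. It fell by 3.89 (SE 0.75, adjusted p = 0.00105), again with no overlap. miR-218, known from motor neurons, had -1.82, -2.09 and -2.15 at day 7, against 1.52, 1.23 and 0.41 at day 1, and fell by 3.07 (SE 0.53, adjusted p = 0.000473).

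Day 1 replicate 3 was the lowest of the day 1 arrays for these 3 miRNAs and for all neuronal miRNAs described next. Some members were at the floor at day 7, so that only a bound can be given. miR-7b was detected on 1 day 7 array and 3 day 1 arrays and was at least 15.1-fold lower at day 7 (adjusted p = 4.25e-05). For miR-138, with 1 and 3 detected arrays, the bound was 10.9-fold (adjusted p = 0.000142), and for miR-153, with 0 and 3, it was 8.97-fold (adjusted p = 0.000109). miR-7a, which shares its seed with miR-7b but is measured by its own probe, had -2.09, -2.001 and -2.45 at day 7, against 0.47, 0.20 and -0.66 at day 1 (adjusted p = 0.0024). Both strands of miR-129 fell, miR-129-3p by 3.09 (SE 0.59, adjusted p = 0.000986) and miR-129-5p to a level at least 5.93-fold lower (adjusted p = 0.00196). miR-9* fell by 2.73 (SE 0.49, adjusted p = 0.000722). miR-7a, miR-9* and miR-129-5p were called lower in 6 of 7 scalings, and miR-137, miR-7b, miR-124, miR-138, miR-153, miR-129-3p and miR-218 in all 7. Over all 15 listed miRNAs, the summed linear relative signal was 0.993 to 1.19 at day 7, against 4.56 to 9.25 at day 1, with 4 of them detected on no day 7 array and 2 on no day 1 array.

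The miRNAs miR-598, miR-551b, miR-873 and miR-344, which are on no list, followed the same pattern of arrays. miR-598 lay at the floor on all day 7 arrays, where 2 of 3 were detected, and had -2.68, -2.88 and -3.57 at day 1. It was at least 6.69-fold lower at day 7 (adjusted p = 0.000157), and miR-551b, detected on 0 day 7 arrays, was at least 4.53-fold lower (adjusted p = 0.000228). miR-598 and miR-551b were called lower in all 7 scalings, and miR-873 and miR-344 in 6.

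The contractile smooth muscle miRNAs miR-143 and miR-145 were both called lower. miR-145 had -3.74, -3.46 and -3.66 at day 7, against -1.98, -2.52 and -2.14 at day 1. It fell by 1.41 (SE 0.27, adjusted p = 0.00106) with no overlap between the days. miR-143 had 0.56, 0.78 and 0.55 at day 7, against 2.29, 1.47 and 1.69 at day 1, and fell by 1.19 (SE 0.23, adjusted p = 0.000964). The call held in 6 of 7 scalings for miR-145 and in 5 of 7 for miR-143. Without scaling neither was called, and the 2 miRNAs still had a median of -0.58.

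In the miR-29 family, known to repress collagens and other matrix genes, 4 of 5 tested members were called lower, beside 24.5% of all tested. miR-29c had 2.00, 1.87 and 1.98 at day 7, against 3.36, 3.21 and 3.22 at day 1. Arrays of a day lay close together, and miR-29c fell by 1.31 (SE 0.14, adjusted p = 9.92e-06). Its other strand miR-29c* fell by 1.22 (SE 0.14, adjusted p = 1.62e-05) and miR-29b by 0.94 (SE 0.18, adjusted p = 0.00117). miR-29a fell by 0.53 (SE 0.14, adjusted p = 0.0101) but was called in 2 of 7 scalings and was above 0 without scaling. miR-29c and miR-29c* were called lower in 6 of 7 scalings and miR-29b in 4, and from 0 to 4 members were called lower over the scalings.

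The miR-30 family, which includes regulators of epithelial and mesenchymal state, had 8 of 9 tested members called lower and 0 higher. The shares of all tested miRNAs were 24.5% lower and 18.6% higher, and the family's median difference was -0.60. The largest fall was that of miR-30c, with -1.65, -1.64 and -1.35 at day 7, against -0.50, -0.30 and -0.37 at day 1 (log2 difference -1.16, SE 0.14, adjusted p = 2.93e-05). The others were smaller, as miR-30a (-0.76, SE 0.18, adjusted p = 0.00394) and miR-30e (-0.69, SE 0.15, adjusted p = 0.00245). Of these, miR-30c was called lower in 6 of 7 scalings and miR-30a and miR-30e in 3 each. The family's median ran from -0.60 to 0.12 and its lower calls from 8 to 0 over the scalings, and the lower calls were 5 without day 7 replicate 1, day 7 replicate 2 or day 1 replicate 2. Single members of other families were called lower too, miR-23b (-0.89, SE 0.17, adjusted p = 0.000915) in 4 scalings, miR-181c (-0.84, SE 0.15, adjusted p = 0.000693) in 3 and miR-26b (-0.69, SE 0.14, adjusted p = 0.00118) in 3.

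Several lists of miRNAs from tissues around or inside an artery had called decreases or lower summed signals at day 7. Of 6 tested fat-associated miRNAs 5 were called lower, among them miR-193, miR-193b, miR-365 and miR-378*, with 0 to 5 such calls over the scalings. Over all tested miRNAs, 24.5% were called lower. miR-193, miR-193b and miR-365 were called lower in 4 of 7 scalings and miR-378* in 2. Their summed linear relative signal was 2.54 to 3.43 at day 7, against 4.42 to 8.17 at day 1. For the erythroid miR-451, miR-144 and miR-486, 0 of 3 were called, and the summed signal was 15.1 to 27.7 at day 7, against 27.7 to 63.0 at day 1. miR-451 had 4.73, 4.41 and 3.87 at day 7, against 4.73, 5.10 and 5.92 at day 1, so that replicate 1 of each day stood nearly level (adjusted p = 0.0749), and miR-451 and miR-144 were called lower without day 1 replicate 1 (adjusted p of 0.0481 and 0.0424).

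The striated muscle list had 1 of 5 tested members called lower, beside 24.5% of all tested miRNAs. This was miR-1 (log2 difference -0.998, SE 0.36, adjusted p = 0.0399). Its call was made in 1 of 7 scalings and was lost without day 7 replicate 1 (adjusted p = 0.13), day 7 replicate 3 (0.101) or day 1 replicate 3 (0.173). miR-206, also of skeletal muscle, went the other way without a call, with -2.42, -0.49 and -2.32 at day 7, against -5.20, -4.05 and -2.42 at day 1 (log2 difference 2.15, SE 0.86, adjusted p = 0.0568). Day 1 replicate 3 stood level with the lower day 7 arrays, and miR-206 was called higher in 6 of 7 scalings and without day 1 replicate 3 (adjusted p = 0.0215). The list's summed signal was 3.95 to 7.39 at day 7, against 5.78 to 19.8 at day 1. Its highest day 1 array was replicate 3, on which miR-133a had 2.47, while the others had 0.44 and 0.86 at day 1 and -0.03, 0.69 and 0.02 at day 7. Of the liver list, miR-192 and miR-194 were called lower with differences of -0.58 and -0.61, each in 2 of 7 scalings, and miR-194 had an adjusted p of 0.0517 without day 7 replicate 1. Of the epithelial miRNAs 0 of 3 tested were called, and they were near the floor on both days, with a summed signal of 0.135 to 0.165 at day 7, against 0.157 to 0.187 at day 1. The part that these other tissues have in the differences between day 7 and day 1 was not tested.

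**Figure D4:**
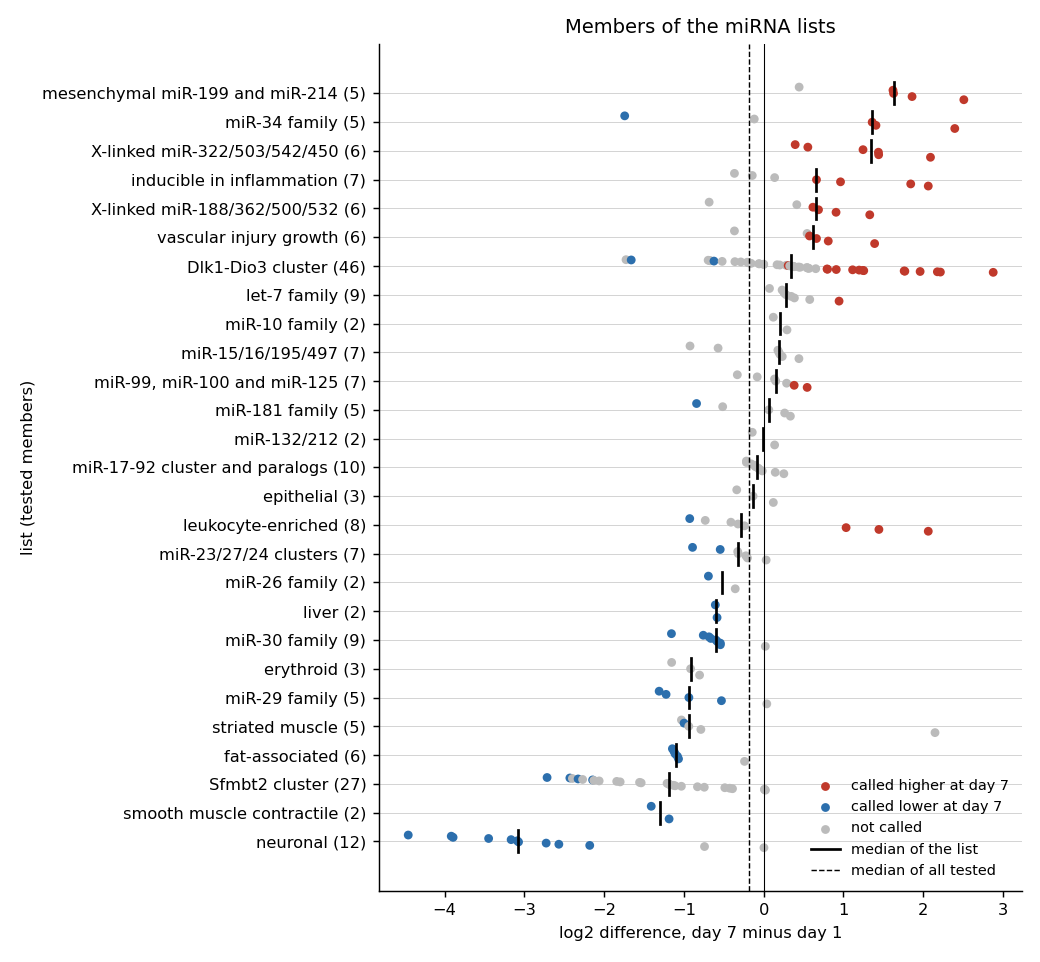
Log2 difference, day 7 minus day 1, of every tested member of the lists with at least 2 tested members, 1 line a list. Points are coloured by call, the short bar is the median of the list, the dashed line is the median of all 322 tested miRNAs (-0.19) and the full vertical line is 0. The neuronal list lies farthest to the left (median -3.08) and the miR-199 and miR-214 group farthest to the right (1.63).

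The repeat-rich miRNAs listed under the Sfmbt2 intron cluster (miR-297, miR-466, miR-467 and miR-669) are not all from 1 locus, since RefSeq places miR-467g on chromosome 5. They gave 4 lower and 0 higher calls among 27 tested, with a median difference of -1.19. This count is read against the 24.5% of all tested miRNAs called lower, which it does not exceed. Their probes recognise near-identical sequences, so single members are uncertain. Day 7 replicate 1 stood over 1 log2 unit above the mean of replicates 2 and 3 in 10 of the 27 and over 1 below it in 5, while replicates 2 and 3 differed by at most 0.32. For miR-467g the values were -5.79, -3.98 and -3.89 at day 7, against -1.67, -2.31 and -1.53 at day 1 (adjusted p = 0.0401). It was called in 2 of 7 scalings and lost its call when any single array of the 6 was left out (adjusted p of 0.0518 to 0.132). miR-297a* was called in 6 of 7 scalings and had an adjusted p of 0.061 without day 7 replicate 1. miR-466d-3p, at -5.79, -5.60 and -5.79 at day 7, against -3.37, -3.47 and -3.90 at day 1, was at least 4.42-fold lower (adjusted p = 1.62e-05), and miR-669i was at least 5.01-fold lower (adjusted p = 0.00607), both called in 7 scalings. Without day 7 replicate 1 the list had 12 lower calls, and when only the 6 arrays entered the fit it had 14.

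In total 12 miRNAs were well above background on all 3 arrays of day 7 and on 0 of day 1. Of these 12, 8 were called higher, beside 18.6% of all tested miRNAs. Picking miRNAs by detection on 1 day largely fixes the direction of their calls. This count and that of the reverse set below are therefore descriptions only. Those called higher include miR-675-3p, miR-542-3p, miR-450a-5p, miR-450b-3p, miR-222, miR-680 and miR-877. Where a bound could be given among the 12 it was low, from 1.01-fold for miR-134, which was not called, to 2.44-fold. For miR-181a-1*, also not called, no bound could be given. The calls of miR-222 and miR-665 were lost when 1 array was left out, for miR-222 each of day 7 replicate 2 and 3 and day 1 replicate 1 and 2 in turn (adjusted p of 0.112 to 0.137). In the other direction 6 miRNAs were detected on all day 1 arrays and 0 day 7 arrays, of which 5 were called lower, beside 24.5% of all tested. These were miR-153, miR-551b, miR-873, miR-344 and miR-466l, with bounds of 2.00-fold to 8.97-fold.

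The further lists had from 0 to 2 called members each, beside 18.6% of all tested miRNAs called higher and 24.5% called lower. Of the listed miRNAs of the oncogenic cluster that holds miR-17 and miR-92a, with its paralogs, 0 of 10 tested were called, with differences from -0.22 to 0.25, and up to 2 were called higher under other scalings. The list leaves out miR-18a* of this cluster, named after its values were seen, which was called lower (log2 difference -1.34, SE 0.43, adjusted p = 0.0245) in 2 of 7 scalings. The miR-15, miR-16, miR-195 and miR-497 list had 0 of 7 called although 6 tested miRNAs with the seed AGCAGCA, that of miR-322, were measured, and miR-322 was the only one of those 6 that was called. Under other scalings up to 5 of the 7 were called higher. The miR-99, miR-100 and miR-125 list had 2 of 7 tested members called higher, with 1 to 4 higher calls over the scalings. In the miR-23, miR-27 and miR-24 clusters 2 of 7 were called lower, and in the miR-181 and miR-26 families 1 of 5 and 1 of 2. In the miR-10 family 0 of 2, in the miR-132 and miR-212 pair 0 of 2, and in the hypoxia-associated and the endocrine list 0 of 1 each were called. In the let-7 family, 1 of 9 was called, let-7i, with 4.50, 4.51 and 4.60 at day 7, against 3.50, 3.62 and 3.66 at day 1 (log2 difference 0.94, SE 0.19, adjusted p = 0.00161). All 9 listed main strands had differences above 0, and 9 were called higher when the percentile was taken from all mouse probes. The 4 tested star strands, named after their values were seen, lay below 0. let-7i* was called lower (-0.75, adjusted p = 0.000239, in 3 of 7 scalings), and let-7b* (-1.07), let-7d* (-1.37) and let-7g* (-1.15) were not called.

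Of 62 hairpins with both strands tested, both were called in 18, where 43.2% of all tested miRNAs were called. In 16 of these the strands had the same direction, 7 higher and 9 lower, and in 2 they were opposite, those of miR-34b and let-7i. In 22 hairpins 1 strand was called, and in 22 neither was. The pairs that were higher were those of miR-199a, miR-299, miR-31, miR-342, miR-362, miR-411 and miR-542.

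Set beside the other groups, the miRNAs that were high at day 7 did not share 1 time course. miR-214 averaged 0.44 in uninjured arteries, then -0.90 (day 1), 1.61 (day 7), 1.19 (day 14) and 0.93 (day 28). miR-379 averaged -1.36, -1.80, 0.38, -0.16 and -1.31 in the same order, and miR-503 -5.59, -4.66, -2.57, -3.17 and -4.18. For miR-214, miR-379 and miR-503 the mean was highest at day 7, while miR-34a had 0.51, 0.29, 2.68, 3.29 and 2.84, with its highest mean at day 14. miR-223 had 0.46 in uninjured arteries and 4.57 at day 1, and its means at days 7, 14 and 28 were 3.64, 3.46 and 2.91. miR-137 averaged -0.88 in uninjured arteries, then 0.24 (day 1), -4.21 (day 7), -3.27 (day 14) and -1.83 (day 28). These means are descriptions, and the uninjured and day 14 arrays and part of the day 28 arrays lie on another slide than days 1 and 7.

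**Figure D5:**
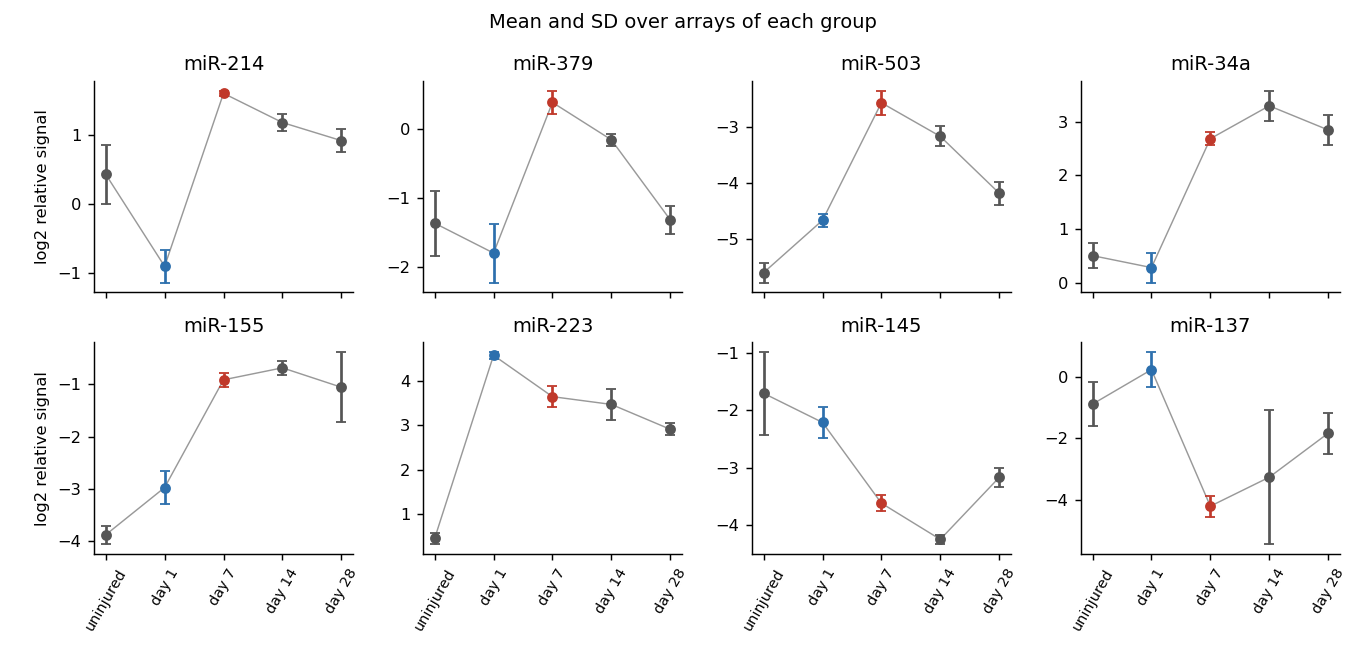
Mean log2 relative signal with SD (bars) of 8 miRNAs in uninjured arteries and at days 1, 7, 14 and 28 after injury (3 arrays a group, 4 at day 28), each panel with its own vertical scale. Of the panels, miR-214, miR-379, miR-503, miR-34a and miR-155 are higher at day 7 than at day 1, and miR-223, miR-145 and miR-137 are lower.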

How the data were processed

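Total RNA was measured on 1-colour Agilent arrays. Per the file headers, the authors extracted spot intensities with Agilent Feature Extraction 9.5.1.1, and the deposited processed intensity of each spot was used. The deposited value table lay within 0.1% (or rounding error) of the scanner files' total gene intensity in 100% of values and served as an alternative.

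Spots without an outlier mark were averaged per probe. Scaling used, per array, the 75th percentile among the 395 mouse probes detected on each of the 16 arrays. Scaled values were floored at 0.0181 and put on the log2 scale. A probe was detected where at least 50% of its spots were well above background. Of several probes of a miRNA the brightest was kept. The test covered 322 miRNAs detected on every array of at least 1 of the 5 groups, 268 of them on all 6 arrays compared. On the 6 arrays, 299 to 329 miRNAs were detected per array.

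Differences are day 7 minus day 1, from limma 3.58.1 in R 4.3.3 (package data.table, version 1.17.8): 1 model over 5 group means and 16 arrays, moderated tests (prior degrees of freedom 1.98), Benjamini-Hochberg adjustment over all tested miRNAs, called at an adjusted p under 0.05. Where the dimmer day had an array that did not detect the miRNA or lay at the floor, the fold is a bound ("at least"), taking each array of that day at its lowest detected signal where that was higher. The number of arrays limits the precision. The pipeline was tested on simulated data.

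Named were, per direction, the 15 largest called differences with the days apart, up to 4 members of each of 30 lists by smallest p, miRNAs detected on 1 day only, the brightest 5, and other strands or shared seeds of the largest. The members and lists were chosen with earlier results of these data known. Alternatives tried were 6 other scalings, normexp background, filters, floors, outlier spots, probe summaries, sample subsets, slide, slide row and replicate blocks, array weights, moderation options, a size threshold and each array left out in turn. Same-numbered arrays of the 2 days did not deviate together (correlations -0.03, -0.22 and -0.16), so the numbers were not taken as pairs.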

Additional observations from a re-analysis of the deposited data

How the results depend on the processing

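Of the counts of 139 called, 60 higher and 79 lower, at least 1 moved by over 1.5 times in each alternative given next, up to slide row as a block. The alternatives given after it moved none of the counts that far. Taking the 75th percentile from all mouse probes gave 101 higher and 33 lower (75.4% of calls higher, against 43.2% in the scaling used), and scaling to the median 104 and 36 (74.3%). Quantile normalization gave 51 lower beside 88 higher (63.3%), the geometric mean 50 lower beside 88 higher (63.8%), and no scaling 78 called, 11 of them lower (85.9% higher). Testing only miRNAs detected on all 16 arrays, a smaller set of 219, gave 51 lower. The authors' value table gave 38 higher, array weights, whose estimation stopped before convergence, gave 121 lower, and also requiring a log2 difference of at least 1 gave 75 called, 29 higher and 46 lower. With slide row as a block among the arrays of slide 1, 34 were higher and 72 lower, and the day 7 array of the same slide row alone against day 1, its spread taken from the other groups, gave 40 and 59. With the replicate block, 137 were called, 56 higher and 81 lower, and the calls of miR-222 and miR-665 were lost. Leaving out single arrays gave 107 to 128 called, 44 to 58 higher and 63 to 72 lower. Over 33 alternatives 0 called miRNAs were called in the opposite direction. Of the 125 tested miRNAs that the rule names, 20 changed sign in at least 1 scaling, 8 of them called. Without scaling, the sign of these called miRNAs described above was reversed: miR-29a (0.19), miR-30b (0.0581), miR-30e (0.0362), miR-26b (0.0285), miR-192 (0.14) and miR-194 (0.12), and with quantile normalization that of miR-192 (0.10). The others were miR-24-1* and miR-7a*. The causes were not tested. Dim miRNAs are limited by the floor: with a floor 2 times as high, 130 were called. With 3 arrays a day, small differences could not be told from the spread.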

Other observations

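Several called miRNAs outside the rule for names share a seed with another tested miRNA, and they are given here as chosen after their values were seen. miR-148a and miR-152, from separate loci with the seed CAGUGCA, were both higher at day 7 in all 7 scalings. miR-152 had 0.92, 1.03 and 1.21 at day 7, against 0.04, -0.05 and 0.05 at day 1 (log2 difference 1.04, SE 0.12, adjusted p = 1.68e-05), and miR-148a rose by 0.85 (SE 0.13, adjusted p = 0.000177). miR-148b, with the same seed, had a difference of -0.23 (adjusted p = 0.254). miR-204 and miR-211, with the seed UCCCUUU, were both lower at day 7. miR-204 had -3.70, -3.23 and -2.94 at day 7, against -1.07, -1.25 and -1.63 at day 1 (log2 difference -1.98, SE 0.31, adjusted p = 0.000239), a call made in 6 of 7 scalings, whereas that of miR-211 (-1.28, SE 0.48, adjusted p = 0.0452) was made in 1.

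Probes for 39 viral miRNAs lay on the arrays and entered no comparison. On all 3 arrays of a group, 3 were well above background at day 7, against 1 at day 1 and 2 in uninjured arteries, and 0 were so on the arrays of day 7 or day 1 without being so on any uninjured array.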
